A study of Mus musculus with 24 samples.

Results

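The comparison described here is the effect of cold in adipose progenitors minus the effect of cold in M2 adipose tissue macrophages, gene by gene. It rests on 12 of the 24 libraries of the study, 3 in each of 4 groups: Warm and Cold progenitors (AP in the labels) and Warm and Cold M2 macrophages. All mice were male C57BL/6J, with no transgene or deletion in the labels, and all were fed a high-fat diet from 6 weeks of age to a weight of 38 to 42 g at 18 to 20 weeks and stayed on it. Warm mice stayed at thermoneutrality, 29 to 30 °C; Cold mice were held at 18 °C for the first 7 days, moved to 4 °C for another 7, and killed on day 14. Cells were sorted from epididymal fat, and each library is a pool of cells from 5 mice, so that differences between single mice are not seen. The labels state neither the gates of the sort nor whether progenitors and macrophages came from the same mice. The other libraries of the study enter no group here.

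Adipose progenitors are stromal cells that express Pdgfra and can become fat cells, while M2 macrophages are the resident, Mrc1-expressing phagocytes of fat, which take up lipid, iron and dead cells. Cold makes nerve endings in fat release noradrenaline, which drives fat cells to release fatty acids and to burn fuel for heat. The contrast separates genes that cold moved alike in both populations from genes that it moved in one of them or in opposite directions.

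Total counts were 26374591 to 34600782 in the progenitor and 14374696 to 23397365 in the macrophage libraries. Pdgfra was at 497, 496 and 729 CPM, the counts of a gene scaled to a common library total, in Warm and 1120, 1040 and 1190 CPM in Cold progenitors, against 11.9 to 27.1 CPM in the macrophage libraries. Mrc1 was at 5620 to 6680 CPM in macrophages and at 1.93 to 18.9 CPM in progenitors, so that the defining markers matched both labels. The progenitor libraries did not carry equal amounts of macrophage RNA: the summed level of 18 macrophage markers was 644, 525 and 116 CPM in Warm progenitors 1, 2 and 3 and 85.4, 259 and 94.6 CPM in Cold progenitors, against 34600 to 37400 CPM in macrophages. Of those 18 markers 12 fell and 1 rose in progenitors. Warm progenitor library 3 stood apart from the other Warm progenitors: across genes expressed in both populations, its median absolute log2 difference from them was 0.24 and 0.19, where the other Warm pair differed by 0.09, and its difference from the Cold progenitor libraries was 0.18 to 0.21. Without that library 5543 genes passed the test of the difference, and without the other 2 Warm progenitor libraries 438 did, against 3025 with all.

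With all 12 libraries more genes passed the test of the cold effect in progenitors (6289) than in M2 macrophages (1038). The order turned without Warm AP 1 and Warm AP 2, with 1098 genes in progenitors and 1381 in macrophages, and separate fits of each population gave 4512 and 2538. Of 13486 genes tested, 3062 were higher (22.7% of those tested) and 3227 lower (23.9%) in Cold than in Warm progenitors at an adjusted p under 0.05. In M2 macrophages 519 were higher (3.85%) and 519 lower (3.85%). The difference of the cold effects passed the test for 3025 genes. Among them 1439 (10.7% of those tested) had the higher cold effect in progenitors and 1586 (11.8%) the lower one. With libraries scaled by their totals, 57.7% of the genes called for the difference were on the higher side, against 47.6% with the scaling used here, and 63.8% against 48.7% for the cold effect in progenitors and 66.1% against 50% in macrophages. The spread between libraries also differed, with a biological coefficient of variation of 15.5% for progenitors and 7.49% for macrophages when each was fitted alone. In RNA pooled from sorted cells, fewer cells of a kind and less RNA per cell cannot be told apart.

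Because the libraries of each population held markers of the other, the gene-level description below is mostly of the 8096 genes expressed in both, meaning at least 5 CPM in the Warm or the Cold libraries of each population and a mean in the lower population of at least 10% of that in the higher. The difference passed the test for 2367 of them (29.2%). Cold moved 1944 of those genes past the threshold in progenitors alone, 176 in M2 macrophages alone, 112 in both and 135 in neither. Across the 8096 genes the cold effects in both populations had a Pearson correlation of 0.152, given as a description over genes, which are not independent replicates.

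Over all genes tested 167 rose in both populations (1.24%), 168 fell in both (1.25%) and 126 moved in opposite directions (0.934%). Among the genes expressed in both, 112 rose and 102 fell in both, 53 rose in progenitors and fell in M2 macrophages, and 43 fell in progenitors and rose in M2 macrophages. The genes that moved alike were thus 69% of the 310 called in both. Of those 214 alike genes, 196 had a 95% interval of the difference within 1 log2 unit of 0 on either side, and for 16 the difference itself was called. Small effects of any sign can meet that bound: 9 of the 53 and 9 of the 43 genes that moved oppositely met it too. The 2 lists of calls had unequal sizes: 49.7% of the macrophage calls were also progenitor calls, and 7.07% of the progenitor calls were also macrophage calls.

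**Figure D1:**
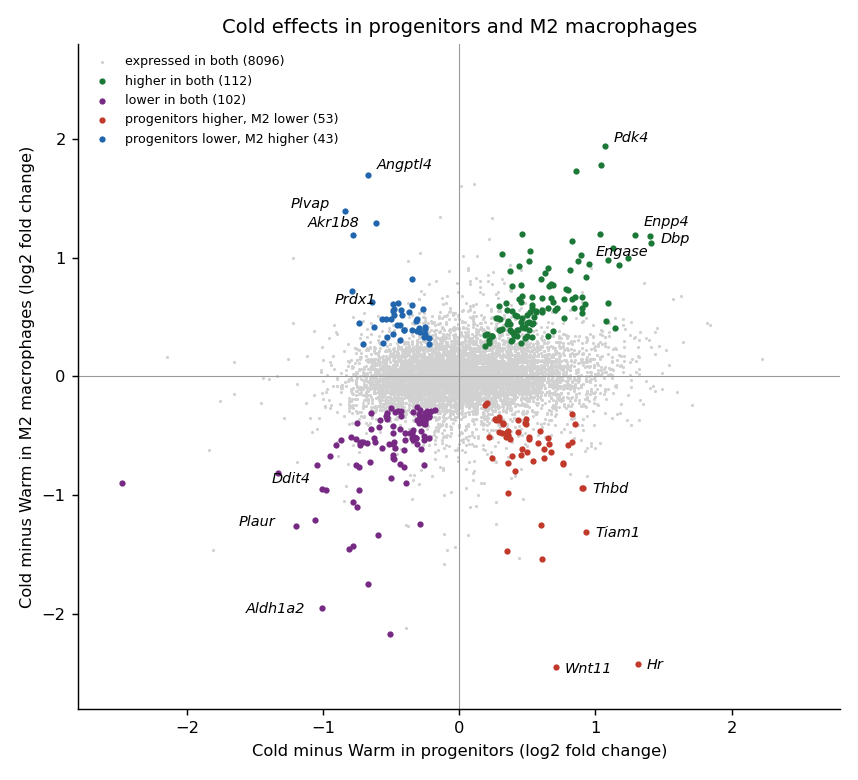
Cold effect in M2 macrophages (vertical, log2 fold change of Cold over Warm) against that in progenitors (horizontal) for the 8096 genes expressed in both. Each point is a gene; coloured points passed the test in both populations, with the number of each class in the legend, and the cloud is wider along the progenitor axis.

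Transcript length moved with the cold effect in progenitors and not in macrophages, and this touches every count over many genes given here. Split into 5 equal groups by transcript length, the genes expressed in both had a median log2 cold effect in progenitors of -0.28 in the shortest group, -0.21, -0.05 and 0.12 in the middle groups and 0.37 in the longest, against -0.01, 0.01, 0, -0.01 and -0.02 in macrophages. The group of the longest transcripts lay at -0.33, -0.25 and 0.05 in Warm progenitors 1, 2 and 3 and at 0.13, 0.22 and 0.19 in Cold ones, relative to the progenitor mean, so that Warm library 3 lay nearer to the Cold libraries. With a correction for transcript length and GC content in each library, chosen after seeing this pattern, 2364 genes passed the test of the difference, 1840 of them among the 3025 and in the same direction. The part of this pattern in the results was not tested beyond that correction. Below, a corrected value is mostly given where the correction ended or made a call, or moved a count by over 1.5 times. A count without a corrected value may still have moved. The calls of the difference for the genes named in the following paragraphs on the strongest differences all held with the correction.

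**Figure D2:**
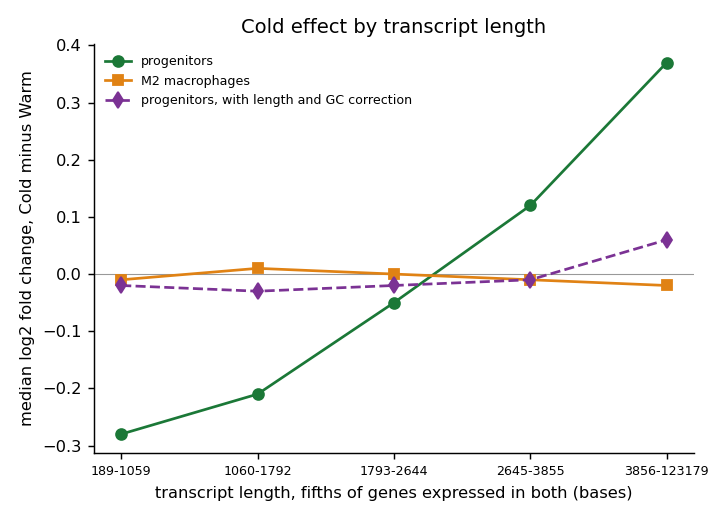
Median cold effect (log2 fold change of Cold over Warm) of the genes expressed in both, in 5 equal groups by transcript length in bases. The progenitor medians run from -0.28 to 0.37, the macrophage medians stay between -0.02 and 0.01, and the corrected progenitor medians lie between -0.03 and 0.06.

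Most of the 10 strongest differences in the positive direction were of genes that rose in progenitors and fell in M2 macrophages. Hr encodes hairless, a corepressor of nuclear receptors (chr14:70552212-70573548, GRCm38, GENCODE M21). Hr was at 12.8, 15.4 and 18.7 CPM in Warm and 36, 40.6 and 47.8 CPM in Cold progenitors, and 38.3, 24.7 and 20.4 CPM in Warm and 7.35, 4.73 and 3.9 CPM in Cold M2 macrophages. Cold libraries lay above all Warm ones in progenitors and below all of them in macrophages. The log2 fold change was 1.31 ± 0.24 (SE) in progenitors and -2.42 ± 0.27 in macrophages, a difference of 3.72 ± 0.36 with a 95% interval of 2.94 to 4.51 (adjusted p = 0.00044).

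Wnt11, a secreted Wnt ligand (chr7:98835112-98855195), was at 39.6, 36.9 and 36.5 CPM in Warm and 74.5, 57.3 and 66 CPM in Cold progenitors. In M2 macrophages it went from 16.9, 13.8 and 8.15 CPM to 2.61, 3.2 and 1.65 CPM, with no overlap of the groups in either population. The log2 fold changes were 0.71 ± 0.18 and -2.45 ± 0.26, and their difference was 3.16 ± 0.32 (adjusted p = 0.00044). Tiam1, an exchange factor that activates the GTPase Rac, was at 10.5, 11 and 16.5 CPM in Warm and 23.3, 25.1 and 29.8 CPM in Cold progenitors, and at 114, 121 and 96.7 CPM in Warm and 43.8, 45.6 and 50.4 CPM in Cold macrophages. All Cold libraries were high in the one population and low in the other, with a difference of 2.24 ± 0.23 (adjusted p = 0.00045). Thbd, the surface receptor thrombomodulin that turns thrombin towards protein C, had 520, 450 and 662 CPM in Warm and 1160, 969 and 1160 CPM in Cold progenitors, and 612, 439 and 415 CPM in Warm and 230, 273 and 297 CPM in Cold macrophages. Its groups did not overlap in either population, and the difference was 1.85 ± 0.25 (adjusted p = 0.0019).

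Ezr, encoding ezrin, which links the cell membrane to actin, had a log2 cold effect of 0.35 ± 0.11 in progenitors and -1.47 ± 0.11 in M2 macrophages, a difference of 1.81 ± 0.15 (adjusted p = 0.00044). Its progenitor call was lost without Warm AP 1, Warm AP 2 or Cold AP 3 (adjusted p = 0.0504 to 0.074), and with length correction (adjusted p = 0.076). The difference held with any 1 library left out. Other genes among the 10 highest were Pvrl1 (nectin-1, 1.97), Slc7a2 (a carrier of arginine and lysine, 1.95), Flrt3 (a membrane adhesion protein, 1.85) and Sowahc (1.84), all given as the log2 difference. Slc7a2 moved in progenitors with no call in macrophages, 1.71 ± 0.24 against -0.24 ± 0.25 in macrophages (adjusted p = 0.62). Of Flrt3, the progenitor call was lost without Warm AP 1, Warm AP 2, Cold AP 1 or Cold AP 3 (adjusted p = 0.0779 to 0.132) or with length correction (adjusted p = 0.17), and the macrophage call without Warm M2 2, Cold M2 2 or Cold M2 3 (0.0504 to 0.0713). The macrophage call of Sowahc was lost without Warm M2 2 or Cold M2 3 (adjusted p = 0.0502 and 0.0556), and the rise of Pvrl1 in progenitors (0.44 ± 0.20) was called without Warm AP 3 only (adjusted p = 0.00326).

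Angptl4, the secreted inhibitor of lipoprotein lipase and a target of fatty-acid-sensing PPAR receptors (chr17:33773750-33781830), had the lowest difference among the genes expressed in both. It was at 540, 563 and 490 CPM in Warm and 297, 376 and 394 CPM in Cold progenitors, and at 70.4, 59.3 and 42 CPM in Warm and 177, 201 and 208 CPM in Cold M2 macrophages. Every Cold progenitor library was below every Warm one, and every Cold macrophage library above every Warm one. The log2 fold change was -0.67 ± 0.17 in progenitors and 1.70 ± 0.17 in macrophages, and the difference was -2.38 ± 0.24, with a 95% interval of -2.89 to -1.86 (adjusted p = 0.00044).

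Akr1b8, an aldo-keto reductase that detoxifies reactive aldehydes and has close relatives in the genome that reads could be shared with, was at 80.4, 80.1 and 61.6 CPM in Warm and 51.9, 52.5 and 51.1 CPM in Cold progenitors. In macrophages it was at 48.7, 55.1 and 50.8 CPM in Warm and 155, 135 and 105 CPM in Cold libraries. Warm AP 3 was the lowest Warm progenitor library but still above the Cold ones, and the difference was -1.90 ± 0.18 (adjusted p = 0.00044). Cyp4b1, a cytochrome P450 mono-oxygenase, had -0.78 ± 0.14 in progenitors, 1.19 ± 0.18 in macrophages and a difference of -1.97 ± 0.22 (adjusted p = 0.00073).

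Among the other genes with the lowest differences, 4 fell in progenitors with no call in M2 macrophages. Nes, the intermediate filament nestin, was at 23, 23.1 and 19.3 CPM in Warm and 3.04, 8.06 and 4.51 CPM in Cold progenitors, against 43.5 to 88.3 CPM in macrophages of both temperatures, a difference of -2.30 ± 0.42 (adjusted p = 0.0056). Tagln (transgelin, an actin-binding protein of contractile cells) had a difference of -1.78 ± 0.27, Ttyh2 (a membrane protein of the tweety family, with a macrophage rise called without Warm AP 3, adjusted p = 0.0286) of -1.66 ± 0.22 and Ch25h (cholesterol 25-hydroxylase) of -1.55 ± 0.21. The summed level of 8 smooth muscle and pericyte markers, which include Tagln, was 197 to 213 CPM in Warm and 157 to 224 CPM in Cold progenitors. The ranges overlapped, but members moved with Tagln: Acta2, Mcam, Cnn1 and Tagln fell in progenitors and Myh11 rose, with a median log2 change of -0.9 over the 8. The difference was called lower for 4 and higher for 1, or 3 and 0 with length correction, which also ended the progenitor calls of Cnn1 and Myh11 (adjusted p = 0.082 and 0.12). The part of these cells in the Tagln values was not tested. Il1rl1, the receptor of interleukin-33, fell by more in progenitors (-2.48 ± 0.32) than in macrophages (-0.90 ± 0.24), a difference of -1.58 ± 0.41 (adjusted p = 0.02), the macrophage call being lost without Cold AP 3 or any 1 macrophage library (adjusted p = 0.0656 to 0.145). Cystm1 rose in macrophages (1.60 ± 0.24) with a log2 change of 0.01 ± 0.20 in progenitors (adjusted p = 0.96). Plvap, a diaphragm protein of endothelial cells, had -0.84 ± 0.26 in progenitors and 1.39 ± 0.30 in macrophages, a difference of -2.23 ± 0.40 (adjusted p = 0.0049). The progenitor groups of Plvap overlapped, its progenitor call was lost without Warm AP 1, Warm AP 2, Cold AP 1 or Cold AP 3 (adjusted p = 0.0604 to 0.0909) or with length correction (adjusted p = 0.067), and its macrophage call without Warm M2 1, Warm M2 3 or Cold M2 2 (adjusted p = 0.0558 to 0.0653). The summed level of 10 endothelial markers went from 150 to 163 CPM in Warm to 224 to 276 CPM in Cold progenitors and from 84.1 to 115 CPM to 118 to 166 CPM in macrophages. The progenitor sum was mostly Tek, with means of 121 CPM in Warm and 218 CPM in Cold progenitors. Tek and Kdr rose there and 0 fell, the call of Kdr being lost with length correction (adjusted p = 0.37), while the median log2 change of the 10 markers was -0.39 in progenitors and 0.59 in macrophages, the same signs as for Plvap. Their part in the Plvap values was not tested. Without Warm AP 1 and Warm AP 2, 15 of the 20 differences chosen by the rule remained called. Those of Slc7a2, Flrt3, Nes, Plvap and Il1rl1 did not.

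**Figure D3:**
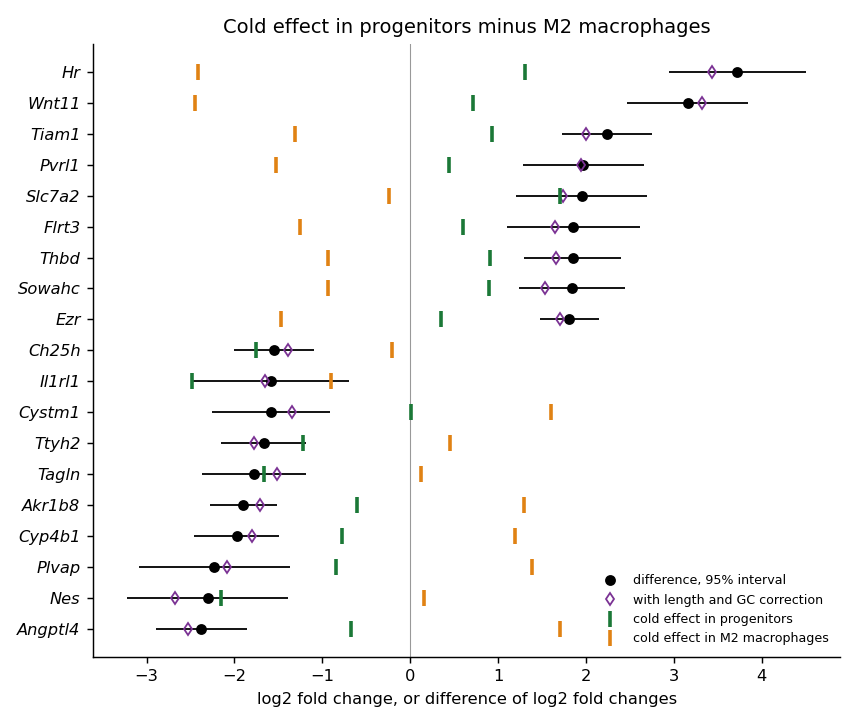
Genes named for the highest and lowest differences of the cold effects, among those expressed in both (log2 scale). Black points with bars are the difference and its 95% interval, diamonds the difference with length and GC correction, and ticks the cold effect in each population; all diamonds lie on the same side of 0 as the points.

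The genes that moved in opposite directions by the most in the smaller of their effects took in several of those above. In the direction of progenitors up and macrophages down, the rule also named Jarid2, a cofactor of the Polycomb complex that methylates histone H3, with 0.62 ± 0.12 in progenitors and -0.69 ± 0.12 in macrophages. Jarid2 went from 25.6, 21.7 and 31.8 CPM to 48, 39.8 and 42.7 CPM in progenitors and from 132, 141 and 125 CPM to 84, 84.4 and 89.9 CPM in macrophages, with no overlap. It further named Dennd4a (0.76 and -0.74), the transcription factor gene Creb5 (0.76 and -0.73) and Ccdc88c (0.67 and -0.64), each given as the log2 cold effect in progenitors and then in macrophages. In the direction of progenitors down and macrophages up were Prr5, a subunit of mTOR complex 2 (-0.79 and 0.72), Shq1, which assembles box H/ACA ribonucleoproteins (-0.64 and 0.63), the adaptor Nck2 (-0.49 and 0.55), the Rap exchange factor Rasgrp2 (-0.57 and 0.48), the fatty acid carrier Slc27a1 and the peroxidase Prdx1, both described with their groups. The macrophage calls of Creb5, Ccdc88c, Prr5, Nck2 and Rasgrp2 were each lost without 3 to 5 of the macrophage libraries taken singly (adjusted p = 0.0522 to 0.134), Warm M2 2 among them for all of these genes. With length correction the progenitor calls of Nck2 and Rasgrp2 were lost (adjusted p = 0.2 and 0.077). For the 20 genes named by this rule the difference held in every single library left out. That is no separate support, as opposite calls in these same libraries chose the genes. The call in macrophages held in every one for 11 of the 20 and the call in progenitors for 18. Without both Warm AP 1 and Warm AP 2 the progenitor call of 1 of the 20 and the difference of 19 held.

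**Figure D4:**
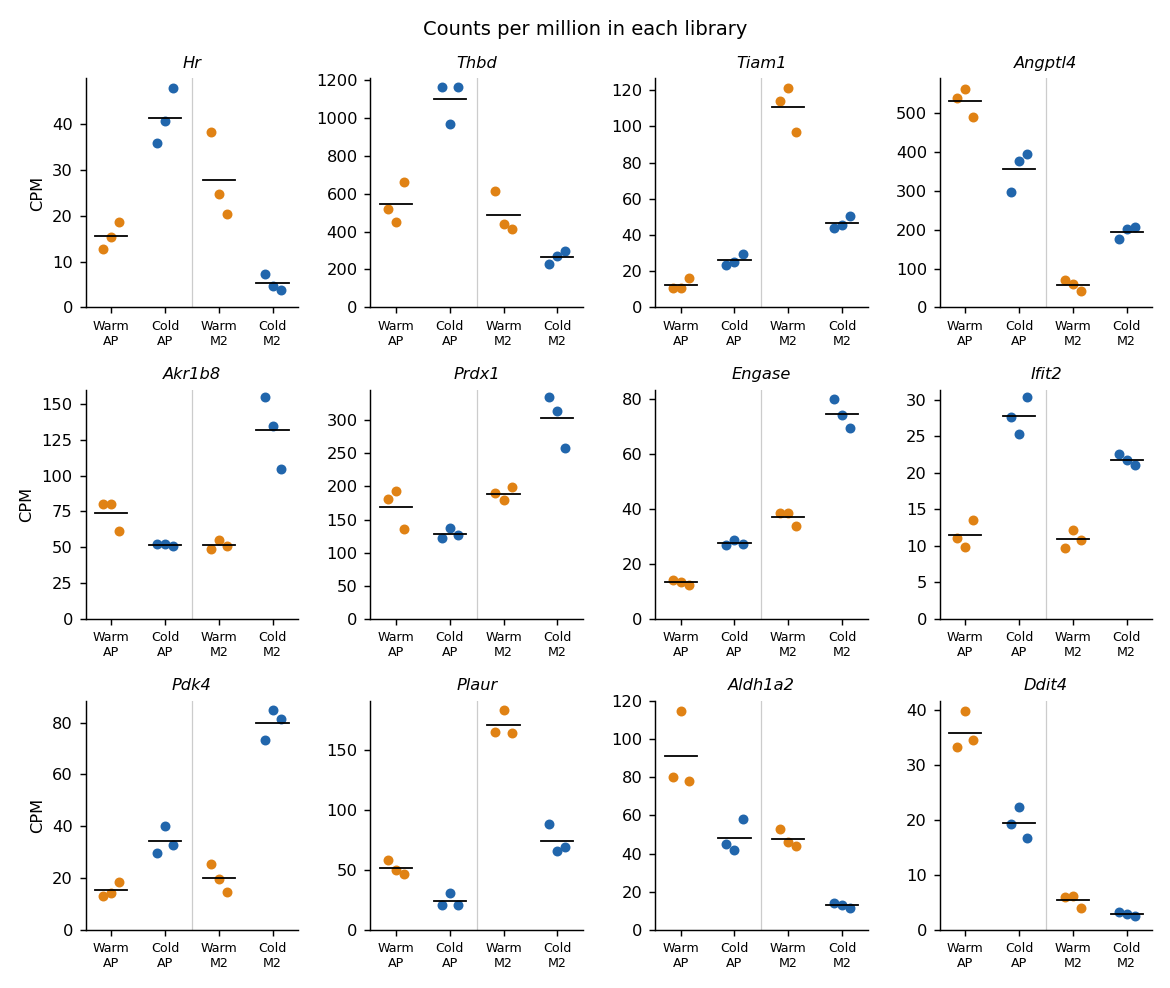
Level of 12 genes in each library (CPM, linear axes from 0). Points are libraries 1 to 3 of each group, orange for Warm and blue for Cold, and bars are group means. Hr, Thbd and Tiam1 are higher in Cold progenitors and lower in Cold macrophages, Angptl4, Akr1b8 and Prdx1 the reverse, and the other 6 genes move the same way in both.

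Genes that rose with cold in both populations were led by Enpp4, Fam13a, Dbp and Pdk4. Engase, a cytosolic enzyme that trims N-glycans from discarded glycoproteins (chr11:118476829-118489209), had the closest pair of effects among the 10 genes named here, with 14.2, 13.5 and 12.2 CPM in Warm and 26.9, 28.6 and 27.1 CPM in Cold progenitors, and 38.6, 38.5 and 33.6 CPM in Warm and 80, 74.2 and 69.3 CPM in Cold macrophages. Cold libraries lay above Warm ones in both populations, with log2 fold changes of 0.95 ± 0.08 and 0.95 ± 0.08 and a 95% interval of the difference of -0.24 to 0.25. Pdk4, the kinase that shuts down pyruvate dehydrogenase when fatty acids are burnt, was at 13.2, 14.3 and 18.3 CPM in Warm and 29.7, 40.2 and 32.9 CPM in Cold progenitors. It was at 25.4, 19.5 and 14.5 CPM in Warm and 73.3, 84.9 and 81.5 CPM in Cold macrophages. Pdk4 rose without overlap in both, by 1.07 ± 0.19 and 1.94 ± 0.19. The difference of -0.88 ± 0.26 (adjusted p = 0.035) was at the edge of the threshold: it was lost without any 1 of Warm AP 2, Cold AP 1, Cold AP 3, Warm M2 2, Warm M2 3, Cold M2 1, Cold M2 2 or Cold M2 3 (adjusted p = 0.0512 to 0.0877).

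Dbp, a clock-driven transcription factor, had 19.9, 16.4 and 18.4 CPM in Warm and 78.6, 29.3 and 48.7 CPM in Cold progenitors, and 22, 20.1 and 19.3 CPM in Warm and 38.9, 47.2 and 54.6 CPM in Cold macrophages. Both groups of Cold libraries were above their Warm ones, by 1.41 ± 0.26 and 1.12 ± 0.26, and the macrophage call was lost without any 1 of Warm M2 1, 2 and 3 or Cold M2 2 and 3 (adjusted p = 0.0627 to 0.0836). Ifit2, an interferon-induced antiviral protein, rose from 11.1, 9.86 and 13.6 CPM to 27.7, 25.4 and 30.4 CPM in progenitors and from 9.68, 12.1 and 10.8 CPM to 22.6, 21.7 and 21.1 CPM in macrophages. Its groups did not overlap, the log2 changes were 1.17 ± 0.12 and 0.94 ± 0.13, and the 95% interval of their difference was -0.16 to 0.62. The other genes named by the rule were Enpp4 (1.29 in progenitors and 1.19 in macrophages), Fam13a (1.40 and 1.18), Dpyd, which breaks down pyrimidines (1.04 and 1.78), Hspa12a (1.03 and 1.20), the lipid droplet protein Plin4 (1.24 and 1.00) and the carrier Slc16a9 (1.09 and 0.98). The macrophage calls of Plin4 and Slc16a9 were each lost without any 1 of 4 macrophage libraries, Warm M2 2 and 3 and Cold M2 2 for both, Cold M2 3 for Plin4 and Warm M2 1 for Slc16a9 (adjusted p = 0.0515 to 0.109).

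Genes that fell in both were led by Plaur, the urokinase receptor (chr7:24462484-24475968). Plaur was at 57.8, 50.2 and 46.8 CPM in Warm and 20.9, 30.5 and 20.3 CPM in Cold progenitors, and at 165, 183 and 164 CPM in Warm and 88, 66.1 and 69.2 CPM in Cold macrophages. Every Cold library was below the Warm libraries of its population, and the log2 changes of -1.20 ± 0.16 and -1.26 ± 0.15 differed by 0.06 ± 0.22 (95% interval -0.41 to 0.54). Aldh1a2, which makes retinoic acid, fell from 80, 115 and 78.3 CPM to 45, 41.6 and 57.9 CPM in progenitors and from 52.6, 45.8 and 43.8 CPM to 14, 13.2 and 11.3 CPM in macrophages. Its fall was larger in macrophages, -1.95 ± 0.17 against -1.01 ± 0.16, a difference of 0.93 ± 0.23 (adjusted p = 0.017) that held in every library left out. Ddit4, an inhibitor of mTOR complex 1 that stress induces, fell in both, with log2 changes of -0.98 ± 0.14 in progenitors and -0.96 ± 0.20 in macrophages. Sphk1, which makes sphingosine 1-phosphate, had -0.78 ± 0.10 and -1.06 ± 0.11. The rule further named the oxidoreductase Nxn (-1.01 and -0.95), the adhesion receptor Cd97 (-1.33 and -0.81), the cytokine receptor Il27ra (-0.78 and -1.43), the cytokine Clcf1 (-0.81 and -1.45), Il1rl1 and the deadenylase-like nocturnin gene Ccrn4l (-1.06 and -1.21). The macrophage call of Ddit4 was lost without Warm M2 1, Warm M2 2 or Cold M2 3 (adjusted p = 0.0505 to 0.0579). That of Ccrn4l was lost without any 1 of the macrophage libraries (adjusted p = 0.0558 to 0.135), and its progenitor value was -1.63 without Cold AP 2 and lost its call without Cold AP 3 (adjusted p = 0.0581). Clcf1 lost its progenitor call without Warm AP 2 (adjusted p = 0.051) and with length correction (adjusted p = 0.061). For the 20 genes named as alike, the macrophage call held in every library left out for 14 and the progenitor call for 18.

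The counts for gene lists that follow stand beside the shares of all genes tested: 10.7% higher and 11.8% lower for the difference, 22.7% and 23.9% in progenitors and 3.85% and 3.85% in macrophages. They are small counts without a test of the list, and most of them moved by over 1.5 times with some library left out.

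In the antioxidant list every called difference went the same way in the main fit. On the same 12 libraries DESeq2 called 16 members lower and 2 higher, and library totals gave 13 and 1. Of 32 tested members, 16 had a lower cold effect in progenitors than in macrophages (50%, against 11.8% of all genes) and 0 a higher one. The members are short, with a median transcript of 982 bases. Short genes had more such calls in general, 466 of the 1614 genes in the shortest length group of those expressed in both. In macrophages 8 rose and 2 fell, in progenitors 5 rose and 12 fell, and the median log2 difference was -0.49, beside -0.04 over all genes tested. Prdx1, a peroxidase that removes hydrogen peroxide, was at 181, 193 and 135 CPM in Warm and 122, 137 and 127 CPM in Cold progenitors, and at 190, 179 and 199 CPM in Warm and 336, 314 and 259 CPM in Cold macrophages. Cold macrophage libraries were above all Warm ones, while in progenitors Warm AP 3 lay within the range of the Cold libraries. The log2 changes were -0.49 ± 0.13 and 0.61 ± 0.13, a difference of -1.11 ± 0.18 (adjusted p = 0.0033, and -0.87 with length correction). The macrophage call of Prdx1 was lost without Warm M2 2 or Cold M2 2 (adjusted p = 0.0531 and 0.0627). Mgst1, a membrane glutathione transferase, rose in macrophages by 0.66 ± 0.11 with -0.13 ± 0.11 in progenitors, a difference of -0.78 ± 0.15. Prdx4, the peroxiredoxin of the endoplasmic reticulum, had a difference of -0.88 ± 0.15 (its macrophage rise was called without Warm AP 3, adjusted p = 0.0357) and Gpx7, a peroxidase of the same compartment, of -1.18 ± 0.17. Gpx7 was not among the genes expressed in both. The glutathione transferase Gstm1, one of a family of close copies, rose alike (0.67 ± 0.13 and 0.78 ± 0.13), and the metallothionein Mt2 fell alike (-0.63 ± 0.11 and -0.52 ± 0.11), the macrophage call of Mt2 being lost without Warm M2 1 or Cold M2 2 (adjusted p = 0.0592 and 0.062). With length correction 9 of the 32 members had the lower effect in progenitors. Without Warm AP 1 this number was 10, without Warm AP 2 it was 8, without Warm AP 3 it was 19 with 1 higher, without Warm M2 3, Cold M2 1 or Cold M2 2 it was 10, and without both Warm AP 1 and Warm AP 2 it was 3.

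The antioxidant response element is the site at which NRF2 binds promoters of such genes, and its core was searched for as TGACNNNGC on both strands from 250 bases before to 50 after the RefSeq start (GRCm38.p6). It occurred in 8 of the 27 members tested that had a promoter sequence (29.6%), against 14.0% of all 27025 genes with one. The stretches of Prdx1 (chr4:116685446-116685505, plus strand) and Mgst1 (chr6:138140451-138140510, plus strand) that hold a match are shown with the matched letters in capitals. Gpx7 and Prdx4, also named for their difference, were not among the members with a match, while Mt2, which fell alike, was. A match is a description of the sequence and no measurement of binding.
Prdx1: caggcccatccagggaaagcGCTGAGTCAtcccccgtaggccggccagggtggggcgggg
Mgst1: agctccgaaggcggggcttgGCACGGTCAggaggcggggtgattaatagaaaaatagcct

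Members of the fatty acid oxidation list that were called for the difference had the lower cold effect in progenitors in the main fit. Among 27 tested genes of fatty acid oxidation, 12 had the lower cold effect in progenitors (44.4%, against 11.8% of all genes) and 0 the higher, with 8 rising and 0 falling in macrophages and 3 rising and 9 falling in progenitors. The 12 include Angptl4, named above for the lowest difference, and Pdk4. With length correction 10 had the lower effect in progenitors and 0 the higher, and in progenitors 7 rose and 7 fell. With library totals 9 had the lower effect and 1 the higher, and in progenitors 7 rose and 5 fell. DESeq2 gave 12 with the lower and 1 with the higher effect. With 1 library left out 7 to 17 had the lower effect, 7 without Warm AP 2, Cold AP 1, Cold AP 3, Warm M2 2, Warm M2 3, Cold M2 1 or Cold M2 2 and 17, with 1 higher, without Warm AP 3. Without both Warm AP 1 and Warm AP 2, 1 did. The 9 falls in progenitors were 4 to 15 with 1 library left out, the fewest without Cold AP 1, and the 8 rises in macrophages 3 to 9, the fewest without Warm M2 2, Warm M2 3, Cold M2 2 or Cold M2 3. Acadl, the long-chain acyl-CoA dehydrogenase, was at 114, 117 and 95.7 CPM in Warm and 103, 104 and 105 CPM in Cold progenitors, and rose from 134, 124 and 130 CPM to 186, 185 and 180 CPM in macrophages. The progenitor groups overlapped and the macrophage groups did not, with a difference of -0.60 ± 0.11 (adjusted p = 0.0056). Without Warm AP 3 the fall of Acadl in progenitors and the rise of Ech1 in macrophages were called (adjusted p = 0.00823 and 0.0246). Ech1 (a peroxisomal and mitochondrial isomerase) had a difference of -0.62 ± 0.13, with a progenitor fall that was lost (adjusted p = 0.16) and a macrophage rise that was called (adjusted p = 0.042) with length correction, and Etfb (electron transfer flavoprotein) of -0.66 ± 0.14. Cpt1a, which carries fatty acids into mitochondria, rose in both, by 0.37 ± 0.10 and 0.44 ± 0.10, with both calls lost in some libraries left out: Warm AP 1 and Warm AP 2 for progenitors (adjusted p = 0.0537 and 0.0574) and Warm M2 2 and 3 and Cold M2 2 and 3 for macrophages (adjusted p = 0.0708 to 0.0815). The macrophage call of Cpt1a was also lost with length correction (adjusted p = 0.055).

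Of 20 tested genes of lipid uptake and droplets, 5 had the lower cold effect in progenitors (25%, against 11.8% of all genes). The higher effect was called for 1 (5%, against 10.7%). With length correction these counts were 3 and 2. With 1 library left out 3 to 8 had the lower effect, 8 without Warm AP 3 or Cold AP 2 and 3 without any 1 of 8 others, and 0 to 2 the higher. Plin2, the droplet coat protein, was at 514, 497 and 405 CPM in Warm and 254, 401 and 276 CPM in Cold progenitors, and at 1610, 1760 and 1510 CPM in Warm and 2630, 2420 and 2320 CPM in Cold macrophages. The Cold libraries were lower in progenitors (-0.70 ± 0.16) and all higher in macrophages, where the change of 0.53 ± 0.16 did not pass the test (adjusted p = 0.071, and 0.0129 to 0.0478 without Warm AP 3, Cold AP 1 or Cold AP 2), and the difference was -1.22 ± 0.23 (adjusted p = 0.0065). Slc27a1, a fatty acid carrier, fell in progenitors (-0.54 ± 0.11) and rose in macrophages (0.48 ± 0.11), a difference of -1.02 ± 0.15, with the macrophage call lost without Warm M2 2, Warm M2 3 or Cold M2 1 (adjusted p = 0.0602 to 0.0673). Hilpda, an inhibitor of the droplet lipase, fell in progenitors alone (-1.0 ± 0.21 against 0.14 ± 0.20), and its difference of -1.14 ± 0.29 had an adjusted p of 0.053 with length correction.

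Among 20 tested lipogenic genes, which make fatty acids and triglycerides, 7 had the higher cold effect in progenitors (35%, against 10.7% of all genes) and 2 the lower (10%, against 11.8%), 7 and 1 with length correction. The number with the higher effect was 4 without Warm AP 1, 4 without Warm AP 2, 4 without Cold M2 2 and 2 without both Warm AP 1 and Warm AP 2. In progenitors 12 rose and 2 fell. Acaca, acetyl-CoA carboxylase, rose in progenitors (0.81 ± 0.20), and its difference was 1.28 ± 0.29 (adjusted p = 0.013). Elovl5, a fatty acid elongase, had a difference of 0.66 ± 0.12, whose parts in progenitors (0.29 ± 0.09) and macrophages (-0.37 ± 0.09) lost their calls without 3 and 5 single libraries of the same population (adjusted p = 0.0567 to 0.103). Scd1, stearoyl-CoA desaturase, instead rose alike, from 20.7, 23.7 and 31.7 CPM to 54.2, 40.1 and 51.5 CPM in progenitors and from 10.3, 6.42 and 7.64 CPM to 16.8, 19.9 and 20 CPM in macrophages. Its groups did not overlap, with log2 changes of 0.83 ± 0.18 and 1.14 ± 0.20, and Dgat1, which completes triglycerides, fell in progenitors (-1.0 ± 0.10) with -0.19 ± 0.10 in macrophages. Of 24 tested genes of sterol synthesis 4 had the higher effect in progenitors (16.7%) and 1 the lower (4.17%), or 5 and 0 with length correction. With 1 library left out 2 to 7 had the higher effect, 7 without Warm AP 3, and 0 to 2 the lower.

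Immediate early genes, which are switched on within minutes of a signal or of tissue handling, had the higher cold effect in progenitors for 10 of 24 tested members (41.7%, against 10.7% of all genes) and the lower for 1. Their median log2 difference was 0.44. With length correction the counts were 11 and 0, and with a library left out 6 to 10 were higher, the fewest without Warm AP 2, but 1 without both Warm AP 1 and Warm AP 2. Fosl2, a partner in the AP-1 factor, was at 106, 114 and 176 CPM in Warm and 329, 220 and 237 CPM in Cold progenitors, and at 210, 227 and 209 CPM in Warm and 166, 142 and 158 CPM in Cold macrophages. Its groups did not overlap in either population. The macrophage change of -0.54 ± 0.19 did not pass the test (adjusted p = 0.1), and the difference was 1.42 ± 0.26 (adjusted p = 0.0056). Without Warm AP 3 the macrophage fall of Fosl2 was called (adjusted p = 0.0127). Nr4a2, an orphan nuclear receptor, fell in macrophages alone (-1.0 ± 0.14), with -0.11 ± 0.13 in progenitors and a difference of 0.88 ± 0.19. Fosb (1.01 ± 0.22) and Btg2 (0.79 ± 0.18) also had the higher effect in progenitors.

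Among 19 tested glucocorticoid-responsive genes 5 had the higher effect in progenitors (26.3%, against 10.7% of all genes) and 0 the lower, 6 and 0 with length correction, 5 to 6 and 0 to 1 with 1 library left out, and 1 and 0 without Warm AP 1 and Warm AP 2. Cdkn1a, the cell cycle inhibitor p21, was at 54.6, 51 and 52.9 CPM in Warm and 54.1, 58.4 and 49.9 CPM in Cold progenitors, whose groups overlapped, and fell from 172, 174 and 165 CPM to 96, 83.1 and 93.4 CPM in macrophages. The difference was 0.91 ± 0.11 (adjusted p = 0.0011). Klf9, a direct target of the glucocorticoid receptor, rose in progenitors by 0.87 ± 0.19 with -0.41 ± 0.20 in macrophages, a difference of 1.29 ± 0.28, and Glul, glutamine synthetase, by 0.75 ± 0.10 with 0.06 ± 0.10, a difference of 0.69 ± 0.14.

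The circadian list had 4 members with the higher (22.2%, against 10.7% of all genes) and 2 with the lower effect in progenitors (11.1%, against 11.8%) of 18 tested. The higher count of 4 was 2 without Warm AP 1, Warm AP 2, any Warm macrophage library, Cold M2 1 or Cold M2 2, and 8 without Warm AP 3. In progenitors 8 rose and 3 fell, and in macrophages 4 rose (1 to 5 with 1 library left out) and 3 fell. The time of day of the harvests is not in the labels. Bhlhe41, a repressor of clock genes, was at 4.25, 4.61 and 4.3 CPM in Warm and 15.1, 14.4 and 12.9 CPM in Cold macrophages and at 8.77, 9.49 and 9.48 CPM in Warm and 13.6, 7.89 and 10.6 CPM in Cold progenitors. It rose in macrophages by 1.62 ± 0.17 and had 0.11 ± 0.15 in progenitors, where the groups overlapped, a difference of -1.51 ± 0.22 (adjusted p = 0.0025). Its relative Bhlhe40 fell in macrophages (-1.09 ± 0.13), with 0.12 ± 0.12 in progenitors and a difference of 1.21 ± 0.18. Nfil3, which represses the sites that Dbp activates, fell in both, with log2 changes of -0.60 ± 0.12 in progenitors and -1.34 ± 0.13 in macrophages (difference 0.74 ± 0.18, adjusted p = 0.016). Arntl, which encodes BMAL1, fell in progenitors (-0.51 ± 0.10) with 0.21 ± 0.10 in macrophages. The E-box, the CACGTG site of the clock activators and of many other factors, occurred in 5 of 16 of these promoters (31.2%) against 8.1% of all. The stretch of Bhlhe41, the member with the lowest called difference, is shown with its match in capitals (chr6:145865534-145865593, minus strand).
Bhlhe41: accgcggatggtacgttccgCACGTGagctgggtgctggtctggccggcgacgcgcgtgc

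Of 23 tested genes of the unfolded protein response 11 fell (47.8%, against 23.9% of all genes) and 1 rose in progenitors, and 4 fell (17.4%, against 3.85%) and 0 rose in macrophages. The difference was higher for 1 (4.35%) and lower for 2 (8.7%), or 2 and 1 with length correction. With length correction 6 fell in progenitors, and with a library left out 3 to 19 did, 6 without Warm AP 1, 7 without Warm AP 2, 3 without Cold AP 1 or Cold AP 3 and 19 without Cold AP 2. In macrophages 1 to 11 fell with a library left out, the most without Cold AP 2. Pdia6, which forms disulfide bonds in the endoplasmic reticulum, was at 606, 557 and 583 CPM in Warm and 304, 460 and 338 CPM in Cold progenitors, and at 424, 424 and 376 CPM in Warm and 290, 315 and 282 CPM in Cold macrophages. It fell without overlap in both, with log2 changes of -0.76 ± 0.14 and -0.53 ± 0.14, although its macrophage call was lost without any 1 of Warm AP 2, Cold AP 3 and the 6 macrophage libraries (adjusted p = 0.052 to 0.121). The exceptions to a fall included Atf6, a sensor of the response, which rose in progenitors (0.88 ± 0.15) with -0.22 ± 0.15 in macrophages. The CCACG letters that end the ER stress element occurred in 16 of 20 promoters of the list (80%), against 35.5% of all, and 4 times in the stretch of Pdia6 (chr12:17266443-17266588, plus strand), shown with both orientations in capitals.
Pdia6: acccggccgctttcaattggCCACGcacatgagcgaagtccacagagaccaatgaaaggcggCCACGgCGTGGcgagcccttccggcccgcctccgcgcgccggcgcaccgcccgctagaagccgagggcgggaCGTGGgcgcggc

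Of 20 tested genes of the ATF4 response to amino acid shortage, 13 fell (65%, against 23.9% of all genes) and 1 rose in progenitors, 8 and 1 with length correction, and 4 fell and 2 rose in macrophages. The difference was lower for 5 (25%, against 11.8%) and higher for 0, and lower for 1 with length correction. It was lower for 1 to 3 without any 1 library other than Warm AP 3 and Cold AP 2, and higher for 2 without Warm AP 3. With a library left out 1 to 6 fell in macrophages and 0 to 3 rose. Asns, asparagine synthetase, went against the list in macrophages: it was at 3.03, 4.14 and 3.91 CPM in Warm and 6.33, 5.5 and 5.88 CPM in Cold macrophages and at 30, 30.3 and 28.6 CPM in Warm and 23.9, 24.5 and 21 CPM in Cold progenitors. The groups did not overlap in either, and the log2 changes of -0.45 ± 0.10 in progenitors and 0.62 ± 0.13 in macrophages differed by -1.07 ± 0.16 (adjusted p = 0.0026), the macrophage call being lost without Warm M2 1 or Cold M2 1 (adjusted p = 0.0511 and 0.0546). Mthfd2, a folate enzyme of mitochondria, fell alike (-1.05 ± 0.17 and -0.75 ± 0.17), with the macrophage call lost without Warm M2 2, Cold M2 2 or Cold M2 3 (adjusted p = 0.0667 to 0.0823). The core of the C/EBP-ATF response element, TGATGNAA, occurred in 5 of 18 promoters (27.8%) against 4.5% of all. The stretch of Asns that ends at the RefSeq start is shown with its match in capitals (chr6:7693210-7693252, minus strand).
Asns: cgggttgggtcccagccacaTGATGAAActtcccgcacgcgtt

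Genes of the respiratory chain are short, with a median transcript of 870 bases, and the correction moved their counts. Of 27 tested members, 23 fell (85.2%, against 23.9% of all genes) and 0 rose in progenitors, 0 were called in macrophages by edgeR or DESeq2 (0 at an unadjusted p under 0.05), and 12 had the lower effect in progenitors (44.4%, against 11.8%). With length correction 10 fell in progenitors and 3 had the lower effect, and without both Warm AP 1 and Warm AP 2, 0 of either kind were called. The lower count of 12 was 23 without Warm AP 3, 3 without Warm AP 2, 4 without Warm AP 1, Cold AP 3, Warm M2 2 or Cold M2 1, and 5 to 7 without Cold AP 1, Warm M2 3 or Cold M2 2. Without Warm AP 1 or Warm AP 2, 14 fell in progenitors. With libraries scaled by their totals 12 fell in progenitors and 9 had the lower effect there. Ndufs8, a subunit of complex I, went from 39, 36 and 29.2 CPM to 26.3, 24.1 and 25.3 CPM in progenitors and from 53.4, 49.2 and 47.3 CPM to 54.6, 55.3 and 55.3 CPM in macrophages. Its difference was -0.63 ± 0.13, and -0.32 with length correction (adjusted p = 0.019).

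Of 35 tested cell cycle genes 19 fell (54.3%, against 23.9% of all genes) and 2 rose in progenitors, and the other 14 were not called there. In macrophages 0 were called by edgeR or DESeq2 (0 at an unadjusted p under 0.05). The difference was lower for 12 (34.3%, against 11.8%) and higher for 2, or 13 and 2 with length correction. Cdk1, the mitotic kinase, was at 5.09, 7.4 and 2.4 CPM in Warm and 0.776, 1.49 and 1.29 CPM in Cold progenitors, against 29.3 to 36.8 CPM in macrophages of both temperatures. All Warm progenitor libraries were above the Cold ones, with a difference of -2.20 ± 0.44 (adjusted p = 0.0078). Birc5, survivin, had a difference of -1.80 ± 0.30, and neither Birc5 nor Cdk1 was among the genes expressed in both. Of the 35 genes 11 were among those expressed in both. The mean of Cdk1 over the progenitor libraries was 9.21% of that over the macrophage libraries, and Cdk1 was highest in Warm AP 1 and 2, the libraries with the most macrophage markers. The part of that RNA was not tested. Without Warm AP 1 the difference was lower for 8 members, without Warm AP 2 for 6, and without both for 0, while the 2 with the higher effect were lost without any 1 library other than Warm AP 3, Cold AP 2 and Warm M2 1 (without both, Cdk1 -1.16, adjusted p = 0.0654).

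Lysosomal genes had the lower cold effect in progenitors for 10 of 32 tested members (31.2%, against 11.8% of all genes) and the higher for 2, and for 7 and 1 with length correction. The lower count of 10 was 5 without Warm AP 2, 6 without Warm M2 2 or Cold M2 2, 15 without Warm AP 3 and 1 without both Warm AP 1 and Warm AP 2. Ctsd, a lysosomal protease, was at 754, 710 and 503 CPM in Warm and 578, 696 and 588 CPM in Cold progenitors and rose from 2160, 2170 and 2240 CPM to 4460, 3980 and 3570 CPM in macrophages, a difference of -0.97 ± 0.21 (adjusted p = 0.01). Mitf, a transcription factor of lysosomal genes, went the other way, from 14.4, 12.3 and 17.9 CPM to 46.1, 39.1 and 40.5 CPM in progenitors (1.39 ± 0.12) with 0.31 ± 0.12 in macrophages, where the rise was called without Warm AP 3 (adjusted p = 0.0248). Without Warm AP 3 Ctsd passed in progenitors (adjusted p = 0.0499). Among 23 tested genes of iron and heme handling 5 had the higher (21.7%, against 10.7% of all genes) and 4 the lower effect in progenitors (17.4%, against 11.8%), or 3 and 3 with length correction. With 1 library left out 2 to 7 had the higher effect, the fewest without Warm AP 2, Warm M2 2 or Cold M2 1, and 3 to 7 the lower, the most without Warm AP 3 or Cold AP 2. Slc40a1, ferroportin, the exporter of iron, rose in both, from 49.8, 38.4 and 56.3 CPM to 275, 331 and 261 CPM in macrophages (2.52 ± 0.15) and from 6.78, 5.05 and 5.29 CPM to 16.1, 11.9 and 13.4 CPM in progenitors (1.17 ± 0.17). It was not among the genes expressed in both, and its rise was larger in macrophages, a difference of -1.34 ± 0.22 (adjusted p = 0.0037).

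Insulin and IGF genes had the higher effect in progenitors for 7 of 17 (41.2%, against 10.7% of all genes) and the lower for 1, or 5 and 2 with length correction, with a median difference of 0.71. The higher count of 7 was 4 without Warm AP 1, Warm AP 2, Cold AP 3 or any macrophage library and 2 without both Warm AP 1 and Warm AP 2. In progenitors 11 rose and 1 fell. Pik3r1, the regulatory subunit of PI 3-kinase, was at 27.8, 30.4 and 39.5 CPM in Warm and 78.6, 58.6 and 70.8 CPM in Cold progenitors, and at 97.4, 113 and 109 CPM in Warm and 99.3, 92.2 and 102 CPM in Cold macrophages, whose groups overlapped. The difference was 1.17 ± 0.19 (adjusted p = 0.0033). The binding protein gene Igfbp4 had the lower effect (-0.94 ± 0.17), rising in macrophages (0.69 ± 0.12) with -0.26 ± 0.12 in progenitors (called without Cold AP 1, adjusted p = 0.0469). Adipogenic regulators rose in progenitors for 12 of 21 (57.1%, against 22.7% of all genes, and 7 without Warm AP 2) and fell for 0, or 10 and 1 with length correction. The difference was higher for 4 (19%, against 10.7%; 1 to 6 with 1 library left out) and lower for 0, among them Rxra, the partner of PPAR receptors (0.84 ± 0.12 in progenitors, -0.09 ± 0.12 in macrophages, difference 0.93 ± 0.17). Of 25 TGF-beta and BMP genes 3 were higher and 3 lower in the difference (12% each), and 8 were higher without Warm AP 3. Tgfbi, a secreted matrix protein that TGF-beta induces, rose from 123, 103 and 120 CPM to 498, 278 and 347 CPM in progenitors and stayed between 1390 and 1760 CPM in macrophages, a difference of 1.72 ± 0.24 (adjusted p = 0.002), while Tgfb1, the ligand, fell in progenitors (-0.94 ± 0.10) with -0.24 ± 0.10 in macrophages. The MAPK feedback genes had 4 of 16 lower (25%, against 11.8% of all genes) and 0 higher, among them the phosphatase gene Dusp6 (-0.89 ± 0.20). With 1 library left out 1 to 4 were lower, 1 without Warm AP 1, Warm AP 2, Cold AP 1, Cold AP 3 or Warm M2 1, and 3 were higher without Warm AP 3. Fgfr1, an FGF receptor, had 0.29 ± 0.13 in progenitors and -0.09 ± 0.13 in macrophages, with neither called (the progenitor value was called without Warm AP 3, adjusted p = 0.0492).

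Of 28 pro-inflammatory genes, 4 had the higher (14.3%, against 10.7% of all genes) and 2 the lower effect in progenitors (7.14%, against 11.8%), shares near those over all genes. The lower count was 1 with length correction, 0 without Warm AP 1, Warm AP 2 or Cold AP 3, 8 without Warm AP 3 and 9 without Cold AP 2. In progenitors 12 fell (42.9%, against 23.9%; 7 without Warm AP 1), and in macrophages 5 fell (17.9%, against 3.85%), 8 with length correction, 11 without Warm AP 3, 2 without Warm M2 2 and 1 without Cold M2 2. Socs3, an inhibitor of cytokine signalling, was at 651, 606 and 702 CPM in Warm and 1360, 823 and 1040 CPM in Cold progenitors, and at 447, 399 and 403 CPM in Warm and 305, 344 and 325 CPM in Cold macrophages, without overlap in either. Its difference was 1.04 ± 0.20 (adjusted p = 0.0073), with a macrophage change of -0.43 ± 0.14 that did not pass the test (adjusted p = 0.0953, and 0.0343 and 0.0398 without Cold AP 1 or Cold AP 2). Il6, which encodes interleukin-6, fell in both, with log2 changes of -1.27 ± 0.14 in macrophages and -0.39 ± 0.14 in progenitors, the latter call being lost without Warm AP 1, Warm AP 2 or Cold AP 2 (adjusted p = 0.0504 to 0.116) or with length correction (adjusted p = 0.31). Il6 was not among the genes expressed in both. Of 30 interferon-response genes 14 rose (46.7%, against 22.7% of all genes) and 5 fell in progenitors, 13 and 2 with length correction, and 6 rose (20%, against 3.85%) and 0 fell in macrophages. The macrophage rises were 3 without any 1 Warm macrophage library or Cold M2 1. The difference was higher for 2 (6.67%) and lower for 4 (13.3%), or 2 and 2 with length correction, with 7 higher without Cold AP 2, 7 lower without Warm AP 3 and 2 lower without Cold AP 3. Ddx58, the RNA sensor RIG-I, rose alike (0.37 ± 0.07 and 0.39 ± 0.07), and Parp14 rose in progenitors (1.02 ± 0.12) with 0.02 ± 0.12 in macrophages. The interferon-stimulated response element core, GAAANNGAA, occurred in 13 of 21 promoters (61.9%) against 9.8% of all. For 18 MHC class I genes, which share reads between close copies, the difference was higher for 2 (11.1%, against 10.7% of all genes) and lower for 0, or 5 and 0 with length correction, 9 and 0 without Cold AP 2 and 1 higher without any 1 library other than Warm AP 3, Cold AP 1 and Cold AP 2.

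MHC class II genes moved in progenitors together with the macrophage RNA of those libraries. H2-Ab1, a chain of the MHC class II molecule, was at 80, 68.1 and 10.8 CPM in Warm and 13, 13.1 and 9.4 CPM in Cold progenitors, where Warm AP 3 lay among the Cold libraries, and at 3980, 4540 and 4330 CPM in Warm and 1930, 1320 and 1390 CPM in Cold macrophages. All Cold macrophage libraries were below the Warm ones. The macrophage fall of H2-Ab1 (-1.54 ± 0.48) had an adjusted p of 0.071, of 0.048 with length correction and of 0.000142 without Warm AP 3. The fit shares the spread of a gene between the populations. Macrophage errors and p-values, here and for Emr1, Cd68 and Mrc1, thus also carry the scatter of the progenitor libraries. Of 13 class II genes 7 fell in progenitors (53.8%, against 23.9% of all genes) and 4 in macrophages (30.8%, against 3.85%). The difference was called for 1, which was lower (7.69%, against 11.8%). Ccr2, the receptor that brings monocytes into tissue, fell in macrophages from 192, 295 and 205 CPM to 48.7, 29.6 and 27.3 CPM (-2.77 ± 0.27) and was at 0 to 1.14 CPM in progenitors. Emr1 had -1.68 ± 0.62 in progenitors and -0.07 ± 0.58 in macrophages, Cd68 -1.90 ± 0.59 and 0.25 ± 0.56, and Mrc1 -1.23 ± 0.63 and 0.06 ± 0.58, all without a call of the difference. The progenitor call of Emr1 was lost with length correction (adjusted p = 0.067). Without Warm AP 3 the differences of H2-Ab1, Emr1 and Cd68 were called (adjusted p = 0.00236 to 0.0253), and without Cold AP 2 those of Mrc1, Emr1 and Cd68 (adjusted p = 0.0142 to 0.0276), where the progenitor values of Emr1 and Cd68 were -2.86 and -2.85. Without Warm AP 3, 10 class II genes fell in progenitors and 7 differed. Without Warm AP 1 and Warm AP 2, 1 fell in progenitors and 3 had the higher effect there, H2-Ab1 with a difference of 1.58 (adjusted p = 0.0279), and the progenitor values of Emr1 and Cd68 were 0.28 and 0.22. The part of macrophage RNA in these progenitor values was not tested.

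Matrix genes that were called mostly fell. Of 36 tested, 18 fell (50%, against 23.9% of all genes) and 2 rose in progenitors, 9 fell (25%, against 3.85%) and 0 rose in macrophages, and 7 fell in both. The difference was higher for 1 (2.78%, against 10.7% of all genes) and lower for 2 (5.56%, against 11.8%), or 1 and 0 with length correction. Without Cold AP 1, 9 fell in progenitors, and without Warm M2 2, Cold M2 1 or Cold M2 3, 3 fell in macrophages. DESeq2 called 18 falls in macrophages. Most of these genes were far lower in macrophages. The sum of 20 progenitor markers was 3310 to 5160 CPM in Warm and 2490 to 3510 CPM in Cold macrophages, with overlap, against 136000 to 173000 CPM in progenitors. Of the 20 markers 2 fell and 1 rose in macrophages, or 4 and 1 with length correction. Some of them, such as Col1a1, Lum and Dcn, also belong to the matrix list, so the sum is no separate measure of progenitor RNA. The part of that RNA was not tested. Fn1, fibronectin, was 1 of 2 members expressed in both. It fell from 2490, 2890 and 2000 CPM to 627, 638 and 519 CPM in macrophages (-2.12 ± 0.19), while in progenitors 10800, 13100 and 13200 CPM in Warm and 7860, 11600 and 10800 CPM in Cold libraries overlapped, a difference of 1.73 ± 0.26 (adjusted p = 0.0026), and the progenitor change of -0.39 ± 0.18 was -0.78 and called with length correction (adjusted p = 0.0039). Col6a2, a chain of collagen VI, fell from 7130, 7120 and 7190 CPM to 3910, 4750 and 4340 CPM in progenitors and from 185, 250 and 164 CPM to 81.1, 118 and 107 CPM in macrophages, in both without overlap.

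**Figure D5:**
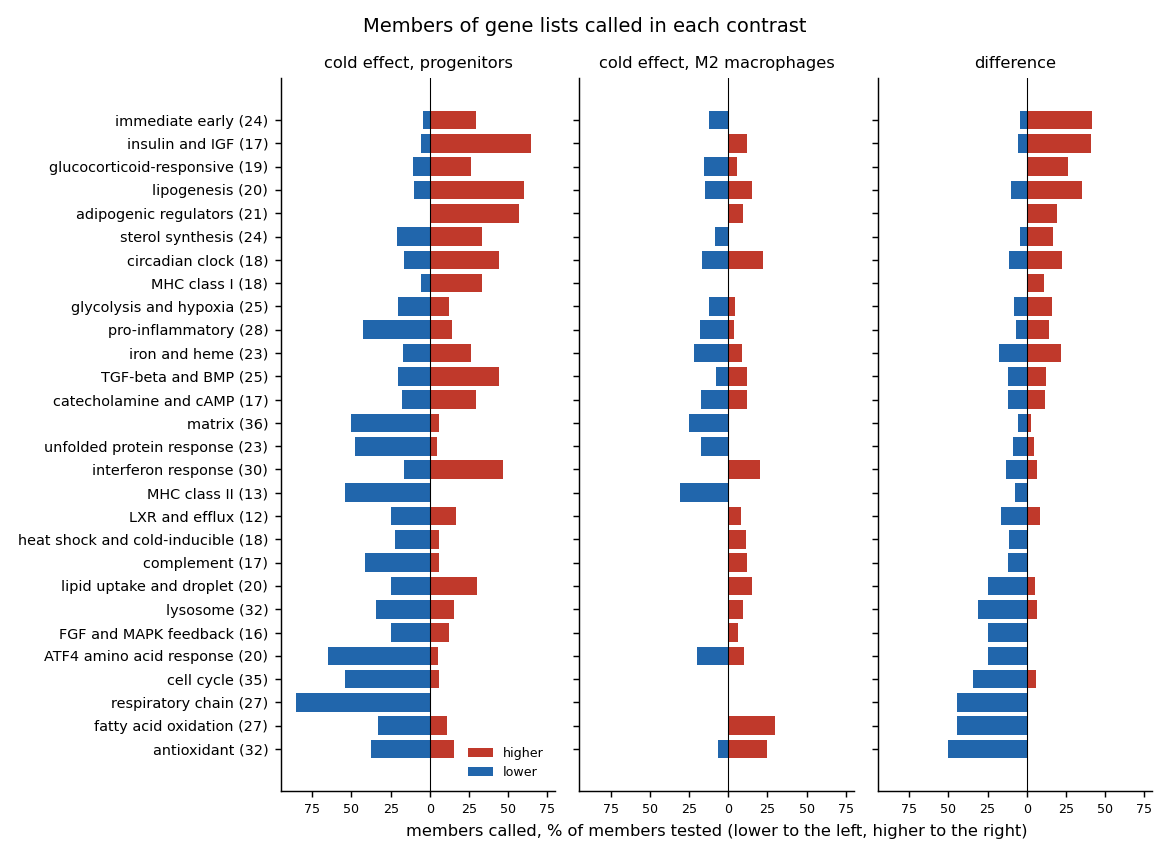
Share of the tested members of each gene list that passed the test, for the cold effect in progenitors, the cold effect in M2 macrophages and their difference (per cent of members tested, lower to the left in blue, higher to the right in red; the number tested is in brackets). The antioxidant list has 16 of 32 members lower in the difference and the immediate early list 10 of 24 higher.

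In the remaining lists the members called for the difference were few in number, at shares to be read against 10.7% higher and 11.8% lower over all genes. Glycolysis and hypoxia genes had 4 higher (16%) and 2 lower (8%) of 25, or 5 and 0 with length correction, and 1 to 6 and 0 to 8 with 1 library left out. Catecholamine and cAMP genes had 2 and 2 of 17 (11.8% each), with 4 lower without Warm AP 3. LXR and efflux genes had 1 (8.33%) and 2 (16.7%) of 12, and 2 and 1 with length correction. Complement genes had 0 and 2 (11.8%) of 17, with macrophage RNA in progenitors as above, and 9 lower without Warm AP 3. Heat shock and cold-inducible genes had 0 and 2 (11.1%) of 18, 1 lower with length correction and 6 lower without Cold AP 2. Within them Pde4b, which breaks down cAMP, rose in progenitors (0.71 ± 0.11) and fell in macrophages (-0.57 ± 0.10), a difference of 1.28 ± 0.14 (adjusted p = 0.00068). Pde4b was not among the genes expressed in both. Adcy3, which makes cAMP, rose in macrophages (0.78 ± 0.08) with 0.08 ± 0.08 in progenitors. Abca1, the cholesterol exporter, rose in progenitors (1.44 ± 0.20) with 0.37 ± 0.19 in macrophages, a difference of 1.08 ± 0.27 that was lost without Warm AP 2 (adjusted p = 0.057) and was 0.57 with length correction, where its macrophage change was called (adjusted p = 0.037).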

How the data were processed

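RNA was poly-A selected and made into libraries with a TruSeq kit that does not mark strand, per the labels' protocols, so reads of overlapping and antisense genes cannot be told apart. GSNAP, SAMtools, CASAVA 1.8 and the GRCm38 build are named in the submitters' processing notes. What counted the reads, with which gene annotation, is not given in the sources used here. The authors deposited raw read counts per gene symbol. Of these, 21063 rows were used and 27 rows whose symbols had become dates were left out (0.148 to 0.16% of counts). CPM were computed over the library total.

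All 12 libraries were fitted together with edgeR 4.0.16 in R 4.3.3 (filterByExpr, TMM scaling, quasi-likelihood F-test, Benjamini-Hochberg adjustment over all genes, threshold 0.05), and every adjusted p given is from that test unless another tool is named. A check of the fit on simulated data gave both populations the same spread and had no outlying library like Warm AP 3. It therefore says nothing about calls that depend on those features. Standard errors are the log2 value over the root of F, and intervals are 95%. Both populations share the spread of a gene in this fit. A macrophage error or call thus also depends on the scatter of the progenitor libraries, and the reverse. p-values measure the spread between pools of 5 mice; 3 pools a group limit the precision. The labels do not say whether shared replicate numbers pair the libraries. No block was used in the main fit, and blocks were run as alternatives. A gene moved alike or oppositely when it was called in both populations, with the same or opposite signs.

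Genes were named by a rule: the 10 highest and 10 lowest called differences of at least 1 log2 unit among genes expressed in both, 10 alike and 10 opposite genes in each direction by the smaller effect, up to 4 members of each list by the p of the difference and up to 2 alike, and 10 genes of interest; of these the text gives a selection, and some genes that the rule names are not reported here. The members and lists were chosen with earlier results of these data known. Transcript lengths are from GENCODE M21 and promoters from RefSeq on GRCm38.p6. Alternatives were another scaling, DESeq2 1.42.0, no filter, a fit with the M1 libraries, a replicate block and each library left out; those without Warm AP 1 and 2, with separate fits and with length and GC correction (splines of 5 and 4 degrees of freedom) were chosen after seeing the data.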

Additional observations from a re-analysis of the deposited data

Results flagged for a closer look

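The cold effect differed between progenitors and M2 macrophages, by the test of the difference itself, for 3025 genes. Among the genes named for the size of that difference, the log2 cold effect was higher in progenitors by 3.72 for Hr, 3.16 for Wnt11, 2.24 for Tiam1, 1.97 for Pvrl1, 1.95 for Slc7a2, 1.85 for Flrt3, 1.85 for Thbd, 1.84 for Sowahc and 1.81 for Ezr. The difference was -2.38 for Angptl4, -2.30 for Nes, -2.23 for Plvap, -1.97 for Cyp4b1, -1.90 for Akr1b8, -1.78 for Tagln, -1.66 for Ttyh2, -1.58 for Cystm1, -1.58 for Il1rl1 and -1.55 for Ch25h. All of these passed with each of the 12 libraries left out in turn. That is no separate support, as large called differences in these same libraries chose the genes.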

How the results depend on the processing

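The counts of the difference (3025), of progenitor (6289) and macrophage (1038) calls and of alike (214) and opposite (96) genes stayed within 1.5 times under the other scalings, no filter, the fit with M1 libraries and the length and GC correction. DESeq2 gave 327 alike and 150 opposite genes, which held 207 of the 214 and 91 of the 96. Similar counts did not mean the same genes: 146 and 58 of them were kept with the length and GC correction, 163 and 68 with library totals, 143 and 57 with M1 libraries, and 167 and 69 in separate fits. Separate fits of 6 libraries gave 2538 macrophage calls, 442 alike and 198 opposite genes. Without Warm AP 1 and Warm AP 2 the counts were 438 for the difference, 1098 for progenitors, 1381 for macrophages, 102 alike and 23 opposite; 1 Warm progenitor library then remained, assumed to vary like the other groups. There H2-DMa had a difference of 1.42 and a progenitor value of 0.04, H2-Ab1 1.58 and 0.04, Emr1 a progenitor value of 0.28 and Cd68 of 0.22, all of the opposite sign to those with all libraries; the cause was not tested.

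With 1 library left out, the difference was called for 1297 to 5543 genes, the progenitor effect for 4308 to 7483, the macrophage effect for 492 to 1639, alike for 95 to 354 and opposite for 37 to 287. The difference moved by over 1.5 times without Warm AP 1 (1585), Warm AP 2 (1297), Warm AP 3 (5543), Cold AP 3 (1807), Warm M2 2 (1690), Warm M2 3 (1791), Cold M2 1 (1697) or Cold M2 2 (1676). The macrophage count did without Warm AP 3 (1639), Warm M2 1 (571), Warm M2 2 (492), Cold M2 2 (493) or Cold M2 3 (580). Alike genes did without Warm AP 2 (137), Warm AP 3 (354), Cold AP 3 (129), Warm M2 1 (117), Warm M2 2 (98), Cold M2 2 (95) or Cold M2 3 (109). Opposite genes did so too, with 55, 287, 57, 47, 40, 37 and 52 in that order, and without Warm M2 3 (55) or Cold M2 1 (58).

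The replicate block (the number as a term) gave 3222 calls of the difference, 6369 in progenitors, 1018 in macrophages, 221 alike and 88 opposite genes, and the block within temperature 2326 calls of the difference. Deviations of progenitor and macrophage libraries of the same temperature and number correlated by -0.07 to 0.06, those of Warm and Cold progenitors by -0.13, 0.35 and 0.28 and those of Warm and Cold macrophages by 0 to 0.04. Such correlations cannot show whether progenitors and macrophages of the same number came from the same mice. Depth limits genes under 5 CPM in either population, which the description of single genes mostly leaves out.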

Other observations

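Other marker lists gave the following summed levels. For 12 monocyte and dendritic cell markers the sum was 370, 438 and 389 CPM in Warm and 167, 185 and 192 CPM in Cold M2 macrophages, with no overlap, and 54 to 78.2 CPM in progenitors. Of the 9 tested, Ccr2, Flt3 and Clec9a fell and Zbtb46 and Siglech rose in macrophages. For 8 markers of thermogenic fat cells it was 3.89, 3.26 and 2.75 CPM in Warm and 15.1, 10.6 and 12.9 CPM in Cold progenitors and 3.57 to 4.52 CPM in macrophages. Of the 3 tested, Ppargc1a rose in progenitors (2.48 on the log2 scale), and with length correction 3 were called higher there. The 10 mast cell and granulocyte markers summed to 39.9, 36 and 29.7 CPM in Warm and 24.1, 23.2 and 12.8 CPM in Cold macrophages. That sum hides opposite moves, which were looked at after the values were seen. Ear2, a ribonuclease of eosinophils and monocytes, fell from 37.2, 33.4 and 27.6 CPM to 5.09, 2.23 and 1.06 CPM. The mast cell protease genes Cpa3, Cma1, Mcpt4 and Tpsb2 rose. Tpsb2 was at 0.196, 0.414 and 0.0566 CPM in Warm and 5.56, 5.7 and 3.11 CPM in Cold macrophages, a log2 change of 4.31 ± 0.68 (SE, adjusted p = 0.00278), while the 4 genes had no call in progenitors. The difference of the cold effects was -4.59 for Tpsb2, -4.18 for Cma1, -3.93 for Cpa3 and -3.79 for Mcpt4, all called (adjusted p = 0.00327 to 0.0161) and all of genes at few counts in Warm macrophages. Mature adipocyte markers summed to 15.9 to 29.2 CPM in progenitors and 64.9 to 93.6 CPM in macrophages. Mesothelial markers summed to 74.6 to 113 CPM in progenitors and 2.23 to 7.3 CPM in macrophages. T and NK cell, B cell, erythroid and epididymal epithelium markers summed to at most 4.13 CPM in any progenitor library and at most 40.6 CPM in any macrophage library. Their part in the results was not tested.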
